A study of Mus musculus with 10 samples.

Results

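The 40 genes described here encode core protein components of the spliceosome, and each was found by its symbol in a count table of 24421 genes. They are 3 genes of the U1 snRNP and its partners, 7 Sm ring genes, 9 genes of the U2 snRNP with U2AF and a U2AF-like protein, 7 of the U4/U6.U5 tri-snRNP, 5 of the Prp19 complex (NTC) and associated factors, 5 for a step II factor and DEAH-box helicases, and 4 SR protein genes. All 40 passed the low-count filter and were among the 11846 genes tested. RNA-seq was performed on R2 cells, which are erythroid progenitors of the bone marrow sorted as positive for CD71 (the transferrin receptor) and for Ter119 (an antigen of the erythroid lineage). There were 10 libraries, each from 1 mouse: 3 Ddx41+/+ Trp53+/+ (replicates 10, 11 and 12), 2 Ddx41+/- Trp53+/+ (replicates 32 and 34), 3 Ddx41+/+ Trp53+/- (replicates 22, 23 and 24) and 2 Ddx41+/- Trp53+/- (replicates 46 and 47). All mice were lethally irradiated BoyJ recipients of 1000000 bone marrow mononuclear cells, and all were harvested 8 weeks after transplant. Donors of every genotype, controls included, carried Rosa26-CreERT2, a Cre recombinase activated by tamoxifen in any cell type, and all recipients were given 1 mg of tamoxifen per day in 2 rounds of 5 days. The floxed Ddx41 allele was therefore deleted after transplant, whereas the Trp53 knockout allele was present from the germline. The sort used no marker of donor against host cells, so host cells that survived irradiation could be included. The ages of the mice were not given in the sources used here.

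The spliceosome removes introns from pre-mRNA through small nuclear ribonucleoproteins (snRNPs) that bind in turn: the U1 snRNP recognizes the 5′ splice site, U2AF and the U2 snRNP select the 3′ splice site and branch point, and the U4/U6.U5 tri-snRNP then joins. RNA helicases and the NTC remodel this assembly so that both steps of splicing can take place, and SR proteins bind exons and promote recognition of splice sites. Ddx41 is a DEAD-box helicase found in activated spliceosomes, and genes of this set such as SF3B1, SRSF2, U2AF1 and ZRSR2 are recurrently mutated in human myeloid malignancy. SF3B1 mutation in particular is known to accompany ringed sideroblasts, which are erythroid precursors with iron-loaded mitochondria.

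Library totals were 7866648 to 20283930 counts, and the lowest count of any of these 40 genes in any library was 186 (Zrsr2). Ddx41 mRNA was measured first because it checks the labels. In CPM (counts per 1000000 counts, scaled for library composition), Ddx41 was 25.1, 21.9 and 22.6 in the Ddx41+/+ Trp53+/+ mice, 13.8 and 16.5 in the Ddx41+/- Trp53+/+ mice, 26.6, 22.9 and 23.2 in the Ddx41+/+ Trp53+/- mice, and 12.5 and 15.6 in the Ddx41+/- Trp53+/- mice. All 4 Ddx41+/- mice were below all 6 Ddx41+/+ mice. Over both Trp53 genotypes, the log2 fold change was -0.70 (SE 0.108, edgeR's quasi-likelihood test with Benjamini-Hochberg adjusted p = 0.0173), and this call was lost without replicate 10 (log2 fold change -0.68, adjusted p = 0.0501), without replicate 32 (-0.67, adjusted p = 0.127) and without replicate 46 (-0.63, adjusted p = 0.0591). The separate comparisons gave -0.63 with Trp53+/+ (SE 0.156, adjusted p = 0.0887 by edgeR) and -0.78 with Trp53+/- (SE 0.153, adjusted p = 0.177 by edgeR). Trp53 was likewise lower in all 5 Trp53+/- mice than in all 5 Trp53+/+ mice (log2 fold change -0.48, SE 0.0690, adjusted p = 0.00355 by edgeR). Erythroid genes were abundant (Slc4a1 at 25470 to 30511 CPM, Gata1 at 391 to 455 CPM), but the adult globin genes were at most 1.28 CPM (Hba-a1), and Hbb-bt had no count in any library. The reason for the low globin counts was not tested, and they were not read as levels in the cells. The annotation used for the counting was not given in the sources used here. Summed CPM of 11 neutrophil markers was 4958 to 8488 and overlapped between all genotypes, whereas that of 11 B cell markers was 212 to 353 in Ddx41+/+ Trp53+/+ mice, 354 to 507 in Ddx41+/- Trp53+/+ mice, 380 to 455 in Ddx41+/+ Trp53+/- mice and 413 to 473 in Ddx41+/- Trp53+/- mice. No B cell marker among the 11 was at 0 in any library. Summed CPM of 10 macrophage markers, none at 0 in any library, was 347 to 670 in Ddx41+/+ Trp53+/+ mice, 428 to 557 in Ddx41+/- Trp53+/+ mice, 283 to 393 in Ddx41+/+ Trp53+/- mice and 452 to 573 in Ddx41+/- Trp53+/- mice. The Ddx41+/+ Trp53+/- mice were thus low in macrophage markers and did not overlap with either group of Ddx41+/- mice. Summed CPM of 8 T and NK cell markers was 20.9 to 31.5 over all mice. The part of these cells in the levels below was not tested, and in bulk RNA fewer cells of a type and less RNA per cell cannot be told apart.

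The 40 genes together took 0.584% to 0.633% of each library's counts, and their levels differed widely from gene to gene. Levels were compared between genes as RPKM, that is, CPM per kilobase of exon. The length was the union of all annotated exons of a gene (7.461 kb for Prpf8 and 5.439 kb for Prpf31), whichever transcripts these cells use. Differences in RPKM between genes therefore depend on that length too. The highest was Srsf2, an SR protein that binds exonic enhancers, at 136 ± 4.07 RPKM (mean ± SD, n = 10 mice), and the lowest was Zrsr2, the U2AF1-like factor of the minor spliceosome, at 3.13 ± 0.311 RPKM. The span between them was 43.5-fold. Of the 39 pairs of neighbours in the order, 35 overlapped in their ranges over the 10 mice. The order was broken only below Srsf2, Snrpd1, Snrpd3 and Prpf31.

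**Figure D1:**
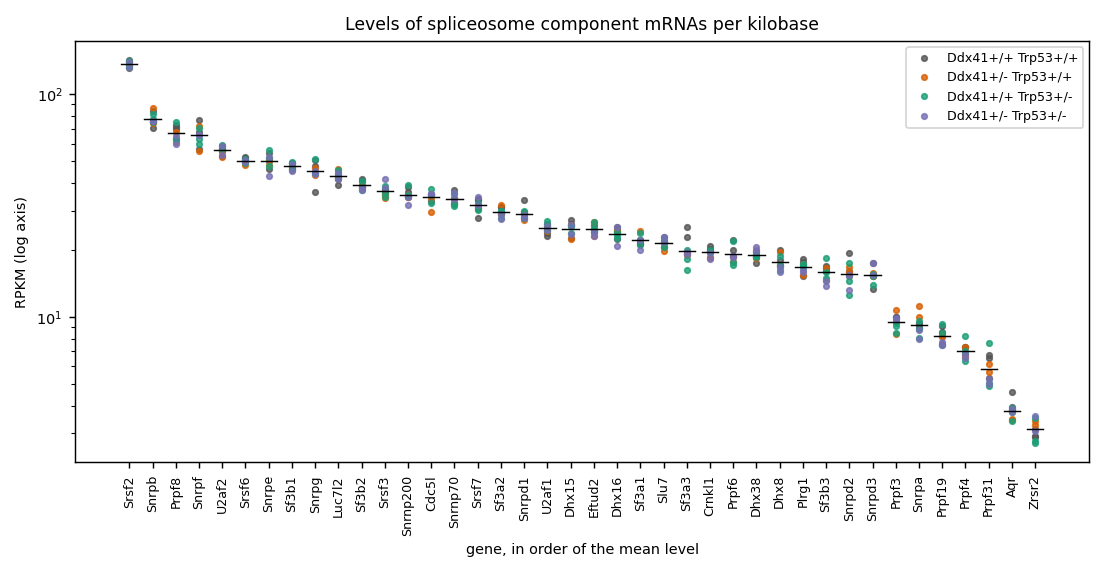
RPKM (log axis) of each of the 40 genes in order of the mean, with 1 point for each of 10 mice colored by genotype and a bar at the mean. Srsf2 lies between 130 and 142 RPKM, above every other gene, and Prpf31, Aqr and Zrsr2 form the lower end.

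The mRNAs of proteins that act in one complex did not share one RPKM, with the limit of the exon length used. The Sm proteins form a 7-membered ring around the snRNA, yet their mRNAs extended from 15.5 ± 1.29 RPKM for Snrpd3 to 77.7 ± 5.01 RPKM for Snrpb (SD, n = 10 mice). In the tri-snRNP, Prpf8, the scaffold of the catalytic center, was at 66.7 ± 5.28 RPKM, the U5 helicase Snrnp200 at 35.4 ± 2.07 RPKM, the U5 GTPase Eftud2 at 24.7 ± 1.31 RPKM, and the U4/U6 protein Prpf31 at 5.83 ± 0.915 RPKM. In the U2 snRNP, Sf3b1, which clamps the branch point, was at 47.4 ± 1.57 RPKM, and Sf3b3 of the same SF3b complex at 15.8 ± 1.39 RPKM. U2af2, which binds the polypyrimidine tract, was at 55.9 ± 2.50 RPKM, and its partner U2af1, which reads the 3′ splice site, at 25.1 ± 1.15 RPKM. The ranges of U2af2 (52.1 to 59.2 RPKM) and U2af1 (23.1 to 26.8 RPKM) did not overlap. Levels of some genes are uncertain because reads could be split with other transcripts: 85.4% of 75-base stretches of the Snrpf transcript also occur in another transcript (Ccdc38 shares the most), as do 53.9% for U2af1, 32.9% for Srsf2 and 31.1% for Cdc5l. Over 10% was shared in 11 of the 40 genes, 12 of the 40 overlap an exon on the opposite strand, and the strand setting of the counting was not given in the sources used here. On its own strand, 1 of the 40 overlaps exons of other genes: Sf3b3, with Snord111 and Gm22193.

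Mice of one genotype differed little in these genes. The CV within genotype had a median of 6.78% over the 40 genes, beside 13.5% over all tested genes. Among the 4720 tested genes with a mean CPM in the same range (22.5 to 538 CPM) the median was 7.62%. The lowest CV was that of the SR protein gene Srsf6 (1.82%), which read 252, 248 and 244 CPM in Ddx41+/+ Trp53+/+ mice, 238 and 232 CPM in Ddx41+/- Trp53+/+ mice, 242, 246 and 237 CPM in Ddx41+/+ Trp53+/- mice, and 238 and 244 CPM in Ddx41+/- Trp53+/- mice. Its highest and lowest mice thus differed 1.09-fold. The highest CV was that of Prpf31 (17.3%), which was 41.5 CPM in replicate 22 and 26.6 and 27.5 CPM in replicates 23 and 24 of the same genotype. The highest mouse exceeded the lowest by over 1.5-fold in 3 of the 40 genes (Prpf31, Sf3a3 and Snrpd2), beside 55.3% of all tested genes and 15.0% of genes in the same CPM range.

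**Figure D2:**
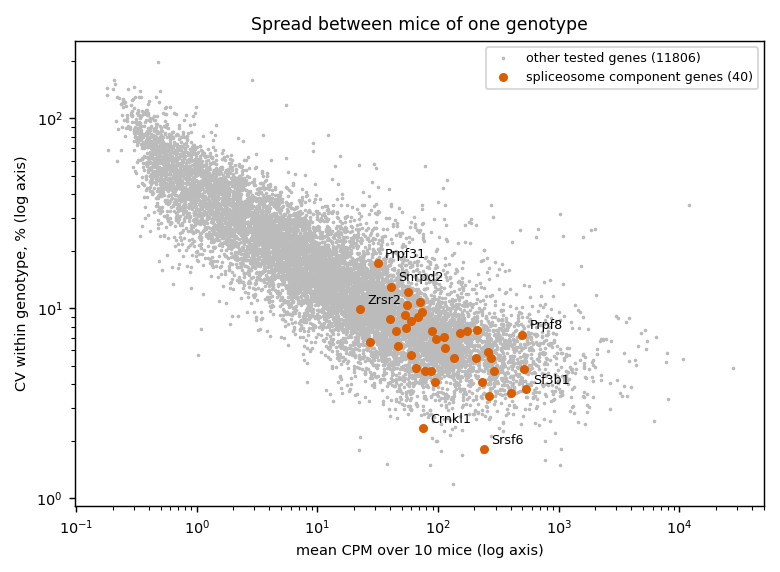
CV within genotype (%, log axis) against mean CPM over 10 mice (log axis) for the 40 spliceosome component genes and the other 11806 tested genes. The 40 genes lie within the cloud of genes of similar level, between 1.82% (Srsf6) and 17.3% (Prpf31).

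Promoters are shown for Sf3b3 and Prpf8, which had the lowest p in the comparison of Ddx41 over both Trp53 genotypes. Those of Prpf19 and Dhx16 are shown as examples with the letters CCGGAAG before the start. In Sf3a1 (7 bases before it) and Snrnp200 (33 bases), not printed here, these letters lie nearer the start than in Prpf19. RefSeq windows of 300 bases on GRCm38.p6 (250 before to 50 after the start) were matched for 34 of the 40 genes, with 39 windows in all. The letters CCGGAAG, the core bound by ETS factors, were searched on both strands together with the GC box (letters GGGCGG), the CCAAT box, the E-box (letters CACGTG), the TATA box (letters TATAAA), a YY1 motif (letters AAGATGGCG) and the NRF1 palindrome, none of which contains another although their matches may overlap. CCGGAAG or its reverse complement was present in 16 of 39 windows (41.0%), from 15 genes, and in 8.86% of all 32851 windows. The shares of the others were as follows: the GC box was in 48.7% of these windows and 35.7% of all, the CCAAT box in 51.3% and 37.4%, the E-box in 10.3% and 7.15%, the TATA box in 10.3% and 13.6%, the YY1 motif in 2.56% and 1.40%, and the NRF1 palindrome in 2.56% and 0.971%. Median GC content was 58.7% in the windows of these genes and 52.7% in all windows. The shares were not matched for GC content or for level of expression. All counts are matches of letters and not measured binding, and binding of no factor was measured in these samples. The 250 bases before the start follow, 5′ to 3′ on the gene's strand, with the ETS letters in capitals where present. They are Sf3b3 (chr8:110846804-110847053, minus strand, 30 bases of which lie in a Cog4 exon), Prpf8 (chr11:75486527-75486776, plus strand), Prpf19 (chr19:10894981-10895230, plus strand) and Dhx16 (chr17:35879528-35879777, plus strand). The last 3 hold no exon of GENCODE M21.
Sf3b3: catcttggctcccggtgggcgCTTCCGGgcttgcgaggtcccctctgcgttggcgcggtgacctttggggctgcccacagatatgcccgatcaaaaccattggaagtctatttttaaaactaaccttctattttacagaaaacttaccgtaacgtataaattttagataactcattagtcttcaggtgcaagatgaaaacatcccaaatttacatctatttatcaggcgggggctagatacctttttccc
Prpf8: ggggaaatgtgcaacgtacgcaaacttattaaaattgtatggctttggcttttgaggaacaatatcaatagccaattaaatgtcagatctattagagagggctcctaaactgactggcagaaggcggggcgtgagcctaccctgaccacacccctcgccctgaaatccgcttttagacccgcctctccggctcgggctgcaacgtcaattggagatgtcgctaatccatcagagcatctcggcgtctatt
Prpf19: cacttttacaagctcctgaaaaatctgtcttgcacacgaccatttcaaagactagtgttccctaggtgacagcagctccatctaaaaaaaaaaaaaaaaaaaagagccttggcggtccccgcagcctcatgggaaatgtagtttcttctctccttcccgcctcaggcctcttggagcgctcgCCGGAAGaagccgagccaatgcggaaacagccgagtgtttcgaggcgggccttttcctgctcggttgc
Dhx16: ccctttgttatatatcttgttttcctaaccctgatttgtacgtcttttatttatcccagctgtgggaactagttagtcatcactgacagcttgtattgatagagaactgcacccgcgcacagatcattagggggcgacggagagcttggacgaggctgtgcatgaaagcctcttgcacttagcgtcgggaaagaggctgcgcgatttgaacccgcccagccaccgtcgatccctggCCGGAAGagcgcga
The letters begin 229 bases before the start in Sf3b3, 68 bases before it in Prpf19 and 14 bases before it in Dhx16, and are not in the Prpf8 window. A second RefSeq window of Prpf19, from another start (chr19:10898395-10898694, plus strand), does not hold them either.

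Whether Ddx41 heterozygosity changed the level of these mRNAs was examined first over both Trp53 genotypes (4 Ddx41+/- mice against 6 Ddx41+/+ mice). None of the 40 genes was called past the limits used throughout (1.5-fold in either direction, with an adjusted p under 0.05), beside 0.11% of all tested genes, and none was called by DESeq2. At an unadjusted p under 0.05 there were 2 (Sf3b3 and Prpf8), beside 8.98% of all tested genes. The differences were small: the log2 fold changes lay between -0.15 (Sf3b3) and 0.16 (Zrsr2). The 95% interval of the fold change, which is not adjusted for the number of genes, stayed within 1.5-fold in either direction for all 40 genes, beside 65.8% of all tested genes. These shares, here and in the comparisons below, were not matched for level. Of all tested genes, 81.9% had a mean CPM below the median of the 40 genes. The median SE was 0.064 for the 40 genes and 0.130 for all tested genes. The interval of every one of the 40 genes lay above the log2 fold change of Ddx41 itself. The sign was lower in 28 of 40 genes, beside 49.9% of all tested genes, with a median of -0.042 beside 0.00044 over all tested genes. With 1 mouse left out at a time this median lay between -0.0500 and -0.0210, and it moved by over 1.5 times without replicate 11 (-0.0210), replicate 22 (-0.0219), replicate 46 (-0.0223) or replicate 32 (-0.0245). The median of a mouse varied within genotype by 0.0399 (SD on the log2 scale), and no test over the 40 genes was made because genes are not replicates.

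**Figure D3:**
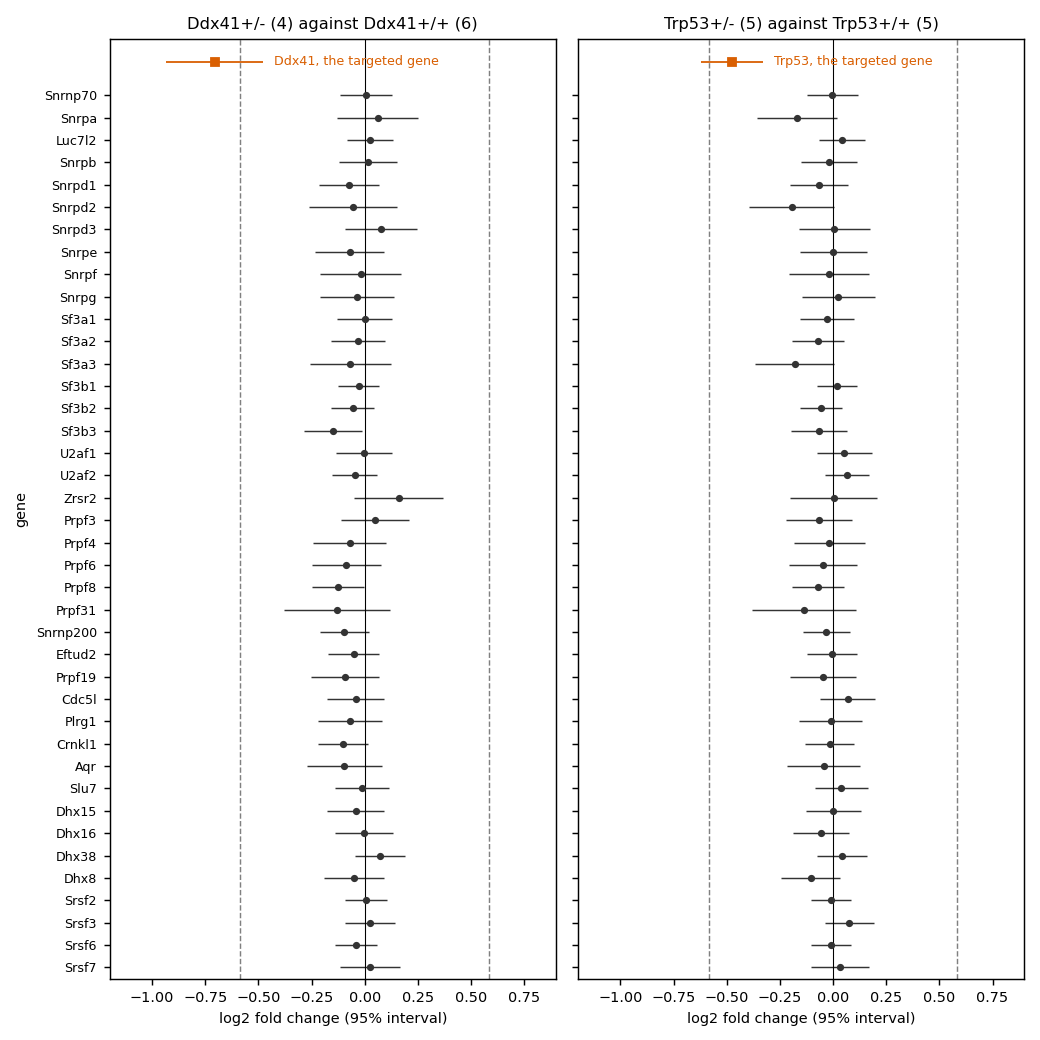
Log2 fold changes (points) with 95% intervals (bars) of the 40 genes and, at the top, of the targeted gene, for 4 Ddx41+/- against 6 Ddx41+/+ mice (left) and 5 Trp53+/- against 5 Trp53+/+ mice (right). Dashed lines mark 1.5-fold, and every interval of the 40 genes stays between them while Ddx41 is at -0.70.

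By role, the sign was lower in 6 of 7 tri-snRNP genes (median log2 fold change -0.086) and in 5 of 5 NTC genes (median -0.093). It was lower in 5 of 7 Sm ring genes (median -0.036), 7 of 9 genes of the U2 group (median -0.030) and 4 of 5 genes of the step II factor and helicases (median -0.012). In the U1 group 0 of 3 were lower (median 0.026), and of the SR proteins 1 of 4 (median 0.016). These counts are descriptions of small groups, and differences between the groups were not tested.

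Sf3b3, the SF3b subunit with a beta-propeller scaffold, had the lowest p. It was 185, 180 and 176 CPM in Ddx41+/+ Trp53+/+ mice, 160 and 182 CPM in Ddx41+/- Trp53+/+ mice, 201, 174 and 163 CPM in Ddx41+/+ Trp53+/- mice, and 150 and 158 CPM in Ddx41+/- Trp53+/- mice. The Ddx41+/- mice overlapped with the Ddx41+/+ mice with Trp53+/+ and lay below them with Trp53+/-. Its log2 fold change over both Trp53 genotypes was -0.15 (SE 0.0644, adjusted p = 0.522 by edgeR's quasi-likelihood test).

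Prpf8 was 544, 518 and 530 CPM in Ddx41+/+ Trp53+/+ mice, 454 and 505 CPM in Ddx41+/- Trp53+/+ mice, 560, 468 and 470 CPM in Ddx41+/+ Trp53+/- mice, and 447 and 483 CPM in Ddx41+/- Trp53+/- mice. With Trp53+/+ the genotypes did not overlap, and with Trp53+/- they did. Over both, its log2 fold change was -0.12 (SE 0.0583, adjusted p = 0.549 by edgeR). Snrnp200, which unwinds U4 from U6, differed by -0.095 (SE 0.0538, adjusted p = 0.626 by edgeR) and ranged from 248 to 306 CPM over the 10 mice.

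Crnkl1, an NTC protein with repeats that bridge its partners, was the only one of the 40 genes whose 4 Ddx41+/- mice lay below all 6 Ddx41+/+ mice. No gene of the 40 lay above, and over all tested genes 0.777% lay wholly below and 0.794% wholly above. Crnkl1 was 77.9, 76.3 and 80.1 CPM in Ddx41+/+ Trp53+/+ mice, 71.3 and 70.7 CPM in Ddx41+/- Trp53+/+ mice, 75.4, 75.03 and 76.8 CPM in Ddx41+/+ Trp53+/- mice, and 70.1 and 74.4 CPM in Ddx41+/- Trp53+/- mice. The gap between the closest mice was 74.4 against 75.03 CPM, and the log2 fold change was -0.10 (SE 0.0561, adjusted p = 0.62 by edgeR).

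Prpf19, the ubiquitin ligase that gives the NTC its name, was at 8.20 ± 0.667 RPKM, and Dhx16, the helicase that prepares the spliceosome for the first step, at 23.7 ± 1.43 RPKM (SD, n = 10 mice). Prpf19 was 66.6, 62.3 and 55.0 CPM in Ddx41+/+ Trp53+/+ mice, 60.3 and 58.9 CPM in Ddx41+/- Trp53+/+ mice, 67.5, 54.3 and 61.6 CPM in Ddx41+/+ Trp53+/- mice, and 54.3 and 56.1 CPM in Ddx41+/- Trp53+/- mice. Dhx16 was 91.3, 104 and 101 CPM in Ddx41+/+ Trp53+/+ mice, 98.0 and 100.0 CPM in Ddx41+/- Trp53+/+ mice, 95.2, 98.5 and 92.3 CPM in Ddx41+/+ Trp53+/- mice, and 85.3 and 103 CPM in Ddx41+/- Trp53+/- mice. Both genes overlapped between the Ddx41 genotypes with either Trp53 genotype, and the log2 fold changes over both were -0.093 for Prpf19 (SE 0.0755, adjusted p = 0.755 by edgeR) and -0.0053 for Dhx16 (SE 0.0646, adjusted p = 0.991 by edgeR).

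The 6 genes recurrently mutated in human myeloid malignancy were not called. Over both Trp53 genotypes, the log2 fold change with its 95% interval was -0.029 (-0.13 to 0.069) for Sf3b1, 0.0066 (-0.092 to 0.11) for Srsf2, -0.0048 (-0.14 to 0.13) for U2af1 and 0.026 (-0.083 to 0.14) for Luc7l2, a U1-associated protein. These 4 intervals all include 0. For Zrsr2, which had the fewest reads, it was 0.16 (-0.049 to 0.37), and for Prpf8 it was -0.12 (-0.25 to -0.0015). With 1 mouse left out at a time, the sign changed for U2af1 (-0.025 to 0.0253), Srsf2 (-0.0084 to 0.0245) and Luc7l2 (-0.0137 to 0.057).

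**Figure D4:**
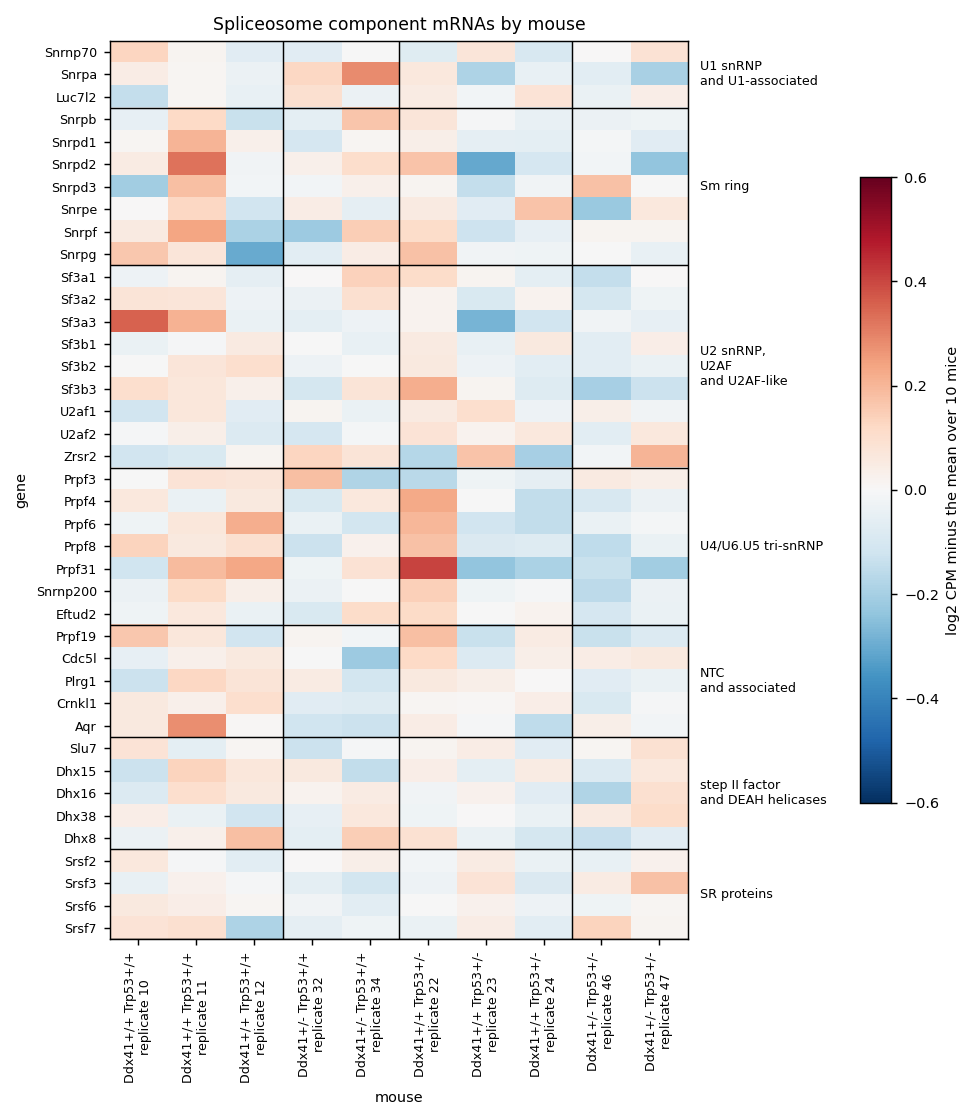
Log2 CPM of each of the 40 genes (rows, grouped by complex) in each of the 10 mice (columns, grouped by genotype), minus the gene's mean over the mice. Colors run from blue (lower) to red (higher), and strong colors belong to single mice, such as Prpf31 in replicate 22 (41.5 CPM) and Sf3a3 in replicate 10 (70.3 CPM).

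With Trp53+/+, Ddx41+/- mice (2) were compared with Ddx41+/+ mice (3). None of the 40 genes was called, beside 0.54% of all tested genes, and DESeq2 called none. There was 1 gene at an unadjusted p under 0.05, beside 9.64% of all tested genes. That gene was Aqr, an RNA helicase that binds introns, at 46.5, 54.2 and 44.9 CPM in Ddx41+/+ mice and 41.1 and 40.8 CPM in Ddx41+/- mice. The values did not overlap, with a log2 fold change of -0.25 (SE 0.112, adjusted p = 0.499 by edgeR). The next 3 were Sf3a3 of the SF3a complex (-0.23, SE 0.120), Prpf8 (-0.15, SE 0.0851) and Crnkl1 (-0.14, SE 0.0832), with adjusted p between 0.582 and 0.659 by edgeR. Values did not overlap between genotypes in 6 genes that were lower (Prpf6, Prpf8, Crnkl1, Aqr, Srsf3 and Srsf6), beside 12.1% of all tested genes, and in 2 that were higher (Snrpa and Zrsr2), beside 12.9%. All 40 intervals stayed within 1.5-fold, beside 51.3% of all tested genes, and 29 genes were lower, beside 49.7%. The median log2 fold change of the 40 genes was -0.0466, and it was -0.0069 without replicate 11. All 11 B cell markers were higher in Ddx41+/- mice here (median log2 fold change 1.01, 2 called), and their part in these values was not tested.

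With Trp53+/-, Ddx41+/- mice (2) were compared with Ddx41+/+ mice (3). Again none of the 40 genes was called, beside 0.0422% of all tested genes, and DESeq2 called none. Sf3b3 alone had an unadjusted p under 0.05, beside 3.75% of all tested genes (log2 fold change -0.22, SE 0.0909, adjusted p = 1.00 by edgeR). Snrnp200 (-0.13, SE 0.0780), Srsf3 (0.12, SE 0.0738) and Eftud2 (-0.11, SE 0.0796) followed, each with an adjusted p of 1.00 by edgeR. Values did not overlap in 5 lower genes (Sf3b3, Snrnp200, Eftud2, Plrg1 and Crnkl1), beside 10.8% of all tested genes, and in 2 higher genes (Prpf3 and Dhx38), beside 9.23%. All 40 intervals stayed within 1.5-fold, beside 54.7% of all tested genes, and 28 genes were lower, beside 51.2%. Crnkl1 was the gene that appeared without overlap, and lower, with both Trp53 genotypes. This follows from the separation of all Ddx41+/- from all Ddx41+/+ mice given above and is not a second result. In this comparison all 10 macrophage markers were higher in Ddx41+/- mice (median log2 fold change 0.53), with none called and 6 at an unadjusted p under 0.05. Summed CPM of 13 markers of maturing erythroblasts was 46401 to 49129 in Ddx41+/- mice and 49275 to 52500 in Ddx41+/+ mice. That of 9 markers of early erythroid progenitors was 1875 to 1911 and 2034 to 2314, and that of the T and NK cell markers was 25.5 to 26.1 and 27.0 to 30.4, so that none of these sums overlapped. Sums weigh abundant genes most (Slc4a1 at 25470 to 30511 CPM and Rhd at 1789 to 2254 CPM over all mice). Each gene's log2 CPM minus its mean over the mice was also averaged over the tested genes of a list. By this measure maturing erythroblast markers overlapped (-0.046 to -0.023 and -0.049 to 0.11), as did early progenitor markers (0.18 to 0.30 and 0.097 to 0.37). The T and NK cell markers did not (-0.036 to 0.038 and 0.067 to 0.57). The part of all these markers in the values of the 40 genes was not tested.

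Whether the Ddx41 effect differed between the Trp53 genotypes was tested as an interaction. None of the 40 genes was called, beside 0.0675% of all tested genes, none had an unadjusted p under 0.05 (5.01% of all tested genes), and DESeq2 called none. The lowest p-values were those of Srsf3 (log2 difference 0.20, SE 0.105), Sf3a3 (0.32, SE 0.168), Aqr (0.30, SE 0.157) and Sf3a1 (-0.18, SE 0.118), each with an adjusted p of 1.00 by edgeR. The interaction was the least precise of the comparisons: intervals stayed within 1.5-fold for 36 of 40 genes, beside 38.8% of all tested genes. The sign was negative in 21 of 40 genes, beside 51.5% of all tested genes.

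The Trp53 genotypes were compared over both Ddx41 genotypes (5 Trp53+/- mice against 5 Trp53+/+ mice). None of the 40 genes was called, beside 0.287% of all tested genes, none had an unadjusted p under 0.05, beside 11.2% of all tested genes, and DESeq2 called none. The log2 fold changes lay between -0.20 (Snrpd2) and 0.077 (Srsf3), and 26 of 40 were lower, beside 50.7% of all tested genes. All 40 intervals stayed within 1.5-fold, beside 66.2% of all tested genes. No gene of the 40 separated all 5 Trp53+/- mice from all 5 Trp53+/+ mice, whereas 0.929% of all tested genes were wholly lower and 1.08% wholly higher. The genes with the lowest p were Sf3a3 (-0.18, SE 0.0883), the Sm protein gene Snrpd2 (-0.20, SE 0.0954), Snrpa, which binds the U1 snRNA (-0.17, SE 0.0885), and the helicase gene Dhx8 (-0.10, SE 0.0654), with adjusted p between 0.463 and 0.583 by edgeR. All 7 tri-snRNP genes were lower, with a median of -0.045. Prpf8 lies 5.90 Mb from Trp53 on chromosome 11, the closest of the 6 genes on that chromosome, and its log2 fold change was -0.071 (SE 0.0571).

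In Ddx41+/+ mice, 3 Trp53+/- mice were compared with 3 Trp53+/+ mice. None of the 40 genes was called, beside 0.912% of all tested genes, DESeq2 called none, and 1 had an unadjusted p under 0.05, beside 9.44%. This was Sf3a3, at 70.3, 63.5 and 53.4 CPM in Trp53+/+ mice and 55.8, 45.3 and 50.7 CPM in Trp53+/- mice. The genotypes overlapped between 53.4 and 55.8 CPM, and the log2 fold change was -0.31 (SE 0.106, adjusted p = 0.278 by edgeR). Aqr (-0.16, SE 0.0984), Snrpd2 (-0.20, SE 0.127) and Luc7l2 (0.095, SE 0.0648) followed, with adjusted p between 0.667 and 0.703 by edgeR. Prpf3, a U4/U6 protein, was the only gene whose values did not overlap, and it was lower, beside 6.53% of all tested genes that were lower and 7.58% that were higher without overlap. Of the 40 genes, 25 were lower, beside 49.9% of all tested genes. All 40 intervals stayed within 1.5-fold, beside 57.2% of all tested genes. In this comparison all 11 B cell markers were higher in Trp53+/- mice (median log2 fold change 1.25) and 6 of them were called. All 10 macrophage markers were lower (median -0.68), with none called and 9 at an unadjusted p under 0.05. The 8 T and NK cell markers were all higher (median 0.54, 1 at an unadjusted p under 0.05), as were the 6 tested markers of early erythroid progenitors (median 0.33), of which Myb was called. The part of these markers in the values of the 40 genes was not tested.

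In Ddx41+/- mice, 2 Trp53+/- mice were compared with 2 Trp53+/+ mice. None of the 40 genes was called, beside 0.169% of all tested genes, DESeq2 called none, and 2 had an unadjusted p under 0.05, beside 5.41%. Snrpa was 29.6 and 33.0 CPM in Trp53+/+ mice and 25.9 and 23.7 CPM in Trp53+/- mice, with a log2 fold change of -0.33 (SE 0.136, adjusted p = 0.845 by edgeR). Srsf3 was 279 and 269 CPM in Trp53+/+ mice and 300 and 328 CPM in Trp53+/- mice, with a log2 fold change of 0.20 (SE 0.0814, adjusted p = 0.845 by edgeR). Both were free of overlap, as were 6 higher and 7 lower genes in all, beside 18.8% and 18.5% of all tested genes. Cdc5l, an NTC core protein (0.15, SE 0.0982), and Sf3a1 (-0.14, SE 0.0918) followed with adjusted p of 0.946 and 0.952 by edgeR. Intervals stayed within 1.5-fold for 38 of 40 genes, beside 49.2% of all tested genes, and 21 genes were lower, beside 50.9%.

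Of 175 other spliceosome and splicing genes in 10 lists, 174 were tested, and they gave the setting for the 40. In the comparison of Ddx41 over both Trp53 genotypes, Ddx41 itself was the only one called. Of the 174, 104 were lower, beside 49.9% of all tested genes (median log2 fold change -0.027), and 8 had an unadjusted p under 0.05, a smaller share than the 8.98% of all tested genes. The lists held 12 other U1 and early factors, 18 other U2 factors, 20 other tri-snRNP factors, 29 other NTC, activation and step II factors, 16 exon junction and export factors, 18 other SR and SR-related proteins (17 tested), 8 SR protein kinases, 26 hnRNP proteins, 10 minor spliceosome factors and 18 snRNP assembly factors. The genes with the lowest p included Lsm4 of the U6 Lsm ring (log2 fold change 0.32, SE 0.0844, adjusted p = 0.229 by edgeR), Rbm48 of the minor spliceosome (0.51, SE 0.155, adjusted p = 0.320) and Dnajc8 (-0.14, SE 0.0513, adjusted p = 0.459). Lsm4 was 51.1, 54.3 and 44.6 CPM in Ddx41+/+ Trp53+/+ mice, 65.0 and 73.3 CPM in Ddx41+/- Trp53+/+ mice, 46.8, 41.0 and 49.3 CPM in Ddx41+/+ Trp53+/- mice, and 51.6 and 50.9 CPM in Ddx41+/- Trp53+/- mice. Its highest mice were both Ddx41+/- Trp53+/+, and the Ddx41 genotypes were closer with Trp53+/-.

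In the comparison of Trp53 over both Ddx41 genotypes, none of the 174 other genes was called by edgeR, 12 had an unadjusted p under 0.05, beside 11.2% of all tested genes, and 84 were lower, beside 50.7% (median log2 fold change 0.0050). Of the 26 hnRNP genes, whose proteins coat pre-mRNA, 19 were higher (median 0.042), with Hnrnpa1 at 0.31 (SE 0.128) and Hnrnpm at 0.14 (SE 0.0581), and neither passed the adjusted test. Mean CPM was 11.8 with Trp53+/+ and 14.6 with Trp53+/- for Hnrnpa1, and 474 and 521 for Hnrnpm. Whether reads of Hnrnpa1 are shared with other transcripts was not examined, and its low counts were not read as its level in the cells. Prmt5, the methyltransferase that modifies Sm proteins before snRNP assembly, was at -0.26 (SE 0.102, adjusted p = 0.358 by edgeR), and Cwc22, which loads the exon junction complex, at -0.23 (SE 0.0828, adjusted p = 0.298 by edgeR). Lsm4 had a lower p than these genes, at -0.25 (SE 0.0833, adjusted p = 0.240 by edgeR). Of the 18 assembly genes, 11 were lower here (median -0.048) and 13 in the Ddx41 comparison (median -0.089).

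SR proteins are phosphorylated by kinases of the SRPK, CLK and DYRK families, and 1 of these kinases stood apart. Srpk2 mRNA was 7.80, 9.04 and 11.7 CPM in Ddx41+/+ Trp53+/+ mice, 48.0 and 55.1 CPM in Ddx41+/- Trp53+/+ mice, 9.50, 12.2 and 17.2 CPM in Ddx41+/+ Trp53+/- mice, and 9.59 and 8.19 CPM in Ddx41+/- Trp53+/- mice. Both Ddx41+/- Trp53+/+ mice lay far above the other 8, which were at most 17.2 CPM. With Trp53+/+, Srpk2 rose by a log2 fold change of 2.44 in Ddx41+/- mice (SE 0.208, adjusted p = 4.64e-06 by edgeR's quasi-likelihood test). With Trp53+/- it was -0.56 (SE 0.224, adjusted p = 1.00 by edgeR), and the interaction was -3.01 (SE 0.309, adjusted p = 2.27e-04 by edgeR). Among Ddx41+/- mice it was lower with Trp53+/- than with Trp53+/+ by a log2 fold change of -2.53 (SE 0.240, adjusted p = 2.46e-05 by edgeR). Over both Trp53 genotypes it was 1.12 (SE 0.415, adjusted p = 0.448 by edgeR). The SR protein mRNAs Srsf2, Srsf3, Srsf6 and Srsf7 were not called in any of these comparisons.

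Srpk2 lies on chromosome 5 (chr5:23503264-23684617 on GRCm38, minus strand), and 14.0% of 75-base stretches of its transcript also occur in another transcript (Kmt2e, which overlaps it on the opposite strand, shares the most). In the same Ddx41+/- Trp53+/+ mice, the summed level of 10 immediate-early and heat shock genes was 1827 to 1832 CPM, beside 1082 to 1299 CPM in Ddx41+/+ Trp53+/+ mice, 1193 to 1660 CPM in Ddx41+/+ Trp53+/- mice and 1450 to 1569 CPM in Ddx41+/- Trp53+/- mice. Of these 10 genes, 3 were called with Trp53+/+ (Fosb, Hspa1a and Hspa1b). The part of this difference in the Srpk2 level was not tested.

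The other kinases differed less. Dyrk1a was higher in all 5 Trp53+/- mice (227 to 254 CPM) than in all 5 Trp53+/+ mice (197 to 221 CPM), with a log2 fold change of 0.18 (SE 0.0510, adjusted p = 0.139 by edgeR). Clk3 followed at 0.18 (SE 0.0593, adjusted p = 0.253 by edgeR). In this comparison 4 of the 8 kinases had an unadjusted p under 0.05, beside 11.2% of all tested genes, and none was called. Of the other lists, the SR-related gene Tra2a had the lowest p (0.21, SE 0.0571, adjusted p = 0.139 by edgeR).

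**Figure D5:**
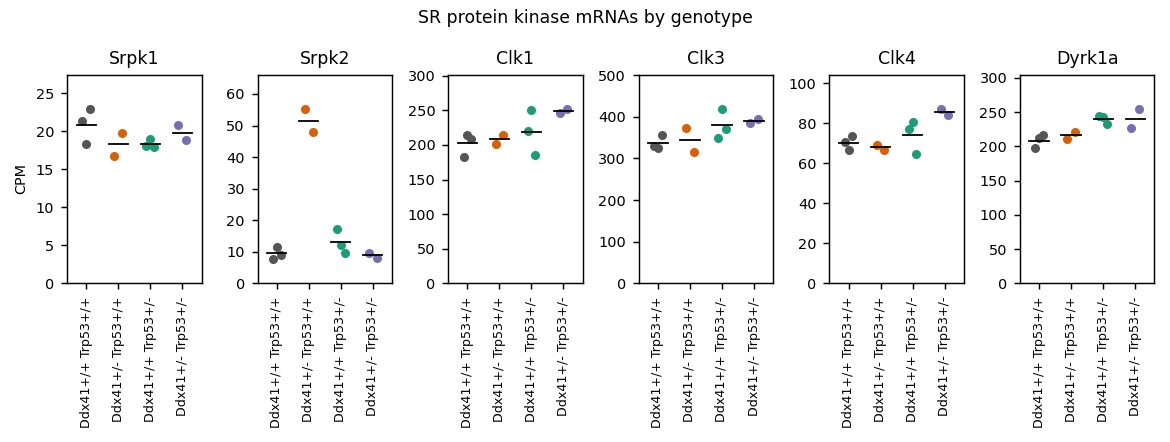
CPM of 6 SR protein kinase genes in each mouse (points) by genotype, with a bar at the mean of each genotype and each axis starting at 0. The 2 Ddx41+/- Trp53+/+ mice are at 48.0 and 55.1 CPM of Srpk2, and the other 8 mice are at or below 17.2 CPM.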

How the data were processed

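For each gene symbol, the table deposited by the authors holds the raw counts of 10 poly(A) RNA libraries. The submitters' processing notes list FastQC 0.11.7, HISAT2 2.0.5, featureCounts 1.5.2 and the mm10 genome. The annotation and the strand setting are not given in the sources used here. The sample labels name a stranded mRNA kit, whereas the study's methods name a TruSeq RNA v2 kit. Reads without molecular identifiers are not independent molecules.

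From the deposited counts, genes were kept by edgeR's filterByExpr by genotype (11846 of 24421), libraries were scaled by TMM, and all 10 mice entered 1 quasi-likelihood model, with a mean for each genotype, in R 4.3.3 with edgeR 4.0.16. The comparisons over both genotypes of the other gene used additive models. Two-sided p-values were adjusted over all tested genes by the Benjamini-Hochberg method. A call needed a change of more than 1.5-fold with an adjusted p below 0.05. The SE was the absolute log2 fold change divided by the square root of F, and 95% intervals used the model's degrees of freedom. Mice were the replicates (2 or 3 per genotype). The spread behind each p-value, SE and interval was moderated by edgeR toward the trend over all tested genes. It therefore does not rest on the values of that gene in these mice alone. Pairs of libraries of one genotype differed by more than sampling noise (chi-square per degree of freedom 6.58 to 16.8). RPKM used the union exon length of GENCODE M21 on GRCm38, and promoter windows were those of RefSeq on GRCm38.p6. Genes were named by rule: every called gene of the set, the 4 with the lowest p in each comparison, 6 mutated in myeloid malignancy, and the called genes and the 2 lowest p of each other splicing list over both genotypes. Of the genes from the other lists only some are given above. Prpf19 and Dhx16 lie outside the rule and were added with their promoters. The genes without overlap between genotypes and the promoters printed were picked with their values in view. The 40 genes and all lists were chosen with earlier results of these data known. As alternatives, the fit was repeated with DESeq2 1.42.0, its size factors within edgeR, other low-count filters, only the genotypes compared, 8 mice, other call rules and each mouse left out. Procedures were tested on simulated data. Mice 35 and 45, named in the table's title as removed, were not analysed here. Figures were drawn with matplotlib 3.10.9.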

Additional observations from a re-analysis of the deposited data

Results flagged for a closer look

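Srpk2, which encodes an SR protein kinase and is not one of the 40 genes, was looked at again because the effect of Ddx41+/- differed between the Trp53 genotypes by a test of the difference itself (interaction -3.01 on the log2 scale, SE 0.309, adjusted p = 2.27e-04 by edgeR). It was at 48.0 and 55.1 CPM in the 2 Ddx41+/- Trp53+/+ mice and at 7.80 to 17.2 CPM in the other 8 mice. The interaction was between -3.23 and -2.74 over all alternative settings, with an adjusted p of at most 0.0038 by edgeR or DESeq2. No cause was tested.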

How the results depend on the processing

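Under 18 other settings, no gene of the 40 was called in any comparison except when the unadjusted p alone was used, which gave 1 gene for Ddx41 with Trp53+/+, 1 for Ddx41 with Trp53+/-, 1 for Trp53 with Ddx41+/+, 2 for Trp53 with Ddx41+/- and 2 for Ddx41 over both Trp53 genotypes. The median log2 fold change of the 40 genes moved by more than the spread between mice (0.0399) only when a mouse was left out: from -0.0365 to between -0.0564 and 0.0034 for Ddx41 with Trp53+/- (0.0034 without replicate 46), and from -0.0119 to between -0.0246 and 0.0543 for the interaction (0.0543 without replicate 22, 0.0446 without replicate 46 and 0.031 without replicate 34). For Ddx41 with Trp53+/+ the median moved from -0.0466 to -0.0069 without replicate 11, which is just under that limit. Of the 1237 values of named genes under other settings, 1220 kept their direction and side of the threshold.

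Reversed signs concerned 3 genes near 0 in the Ddx41 comparison over both Trp53 genotypes: U2af1 was 0.0057 with at least 10 counts in every library, 0.0037 with the 8 mice, and between -0.025 and 0.0253 with a mouse left out, Srsf2 was between -0.0084 and 0.0245, and Luc7l2 between -0.0137 and 0.057. Ddx41 itself became a call in the single comparisons with DESeq2 (-0.63, adjusted p = 0.0232 with Trp53+/+, and -0.78, adjusted p = 0.00781 with Trp53+/-) and with no low-count filter in edgeR (adjusted p = 0.0177 and 0.00215). It lost its call over both genotypes without 3 single mice (-0.763 to -0.6251 over all mice left out). With no low-count filter, Srpk2 was also called over both Trp53 genotypes (1.12, adjusted p = 3.53e-14 by edgeR). Its log2 fold change was nearly that of the main fit (1.12, adjusted p = 0.448 by edgeR), so the p-value changed and the estimate did not. The additive model fits 1 Ddx41 effect, whereas Srpk2 was at 2.44 with Trp53+/+ and -0.56 with Trp53+/-. This call therefore does not describe both Trp53 genotypes. The causes were not tested. No paired analysis was made because the sources used here do not say which mice of different genotypes belong together. The number of mice, 2 or 3 per genotype, limits what could be detected, and depth limits Zrsr2 most.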
